A study of Ovis aries with 2 samples.

Results

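GNLY-low CD8 T barcodes are droplets of sheep blood whose RNA carried the T cell receptor chains and CD8B but at most 1 transcript of GNLY, the gene for the granule protein granulysin. They were proposed as naive-like CD8 T cells. A member had at least 200 detected genes and at most 15% mitochondrial unique molecular identifiers (UMIs, each marking 1 captured RNA molecule). Its raw counts gave at least 1 UMI of CD3D and CD3E together, at least 1 of CD8B, none of CD4, none of NCR1, at most 1 of MS4A1, CD79B and PAX5 together, and at most 1 of GNLY; CD3G was not analysed here. The rule held for 660 of 17540 kept barcodes, 484 of 9452 in the A.G.-ES library and 176 of 8088 in the untreated library. These genes chose the members, so their levels are given only as a description.

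Peripheral blood mononuclear cells of sheep (Ovis aries) were taken fresh, without culture, and read as droplet libraries that tag the 3′ end of each RNA. The A.G.-ES library came from blood drawn after A.G.-ES had been embedded at the ST36 acupoint on both sides; the series concerns weaned lambs and a suture that elutes astragaloside IV and glycyrrhizic acid. The untreated library came from blood of animals that received nothing. There was 1 library per condition and the number of animals in each was not stated, so treatment, library and animal cannot be told apart and no test between conditions was possible. All intervals below are 95% intervals that cover counting error only.

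CD8 T cells recognise peptides on class I molecules and kill infected or altered cells. In human and mouse, naive CD8 T cells are held quiescent by transcription factors such as TCF7 and LEF1, circulate through lymph nodes with CCR7 and survive on IL-7. After activation they take up effector genes such as PRF1, GZMM, NKG7 and CCL5, under RUNX3, EOMES and TBX21. The gene roles given here are those known in human and mouse.

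The libraries differed in depth and in other ways that bear on the members. The kept barcodes had a median of 4201.5 UMIs in the A.G.-ES library and 5305 in the untreated library, and the members had 4839.5 and 6019.5. Members summed to 2600116 UMIs in the A.G.-ES library and 1549683 in the untreated library. UMIs of genes annotated on the Y chromosome numbered 33 in A.G.-ES members and 1376 in untreated members, and the sex of the animals was not stated. The libraries shared 61 barcode sequences, 0 of them among the members. A doublet score placed 68 A.G.-ES members (14.0%) and 16 untreated members (9.09%) among the expected doublets. Of all kept barcodes it placed 7.56% in the A.G.-ES and 6.47% in the untreated library there, lower shares than in the members. These members were kept, and leaving them out is among the alternatives in the closing section.

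CD8A fitted the name. CD3E, a signalling chain of the T cell receptor, was seen in 99.2% of A.G.-ES and 100% of untreated members, a share that the rule itself sets. CD8A, which pairs with CD8B and was not used by the rule, was seen in 42.6% of A.G.-ES and 40.9% of untreated members, against 0.938% and 0.222% of B barcodes. At a fixed 1500 UMIs per barcode, which left out 5 A.G.-ES and 6 untreated members, the CD8A shares were 15.4% and 17.6%. B barcodes (median 5556.5 UMIs in the A.G.-ES and 8949 in the untreated library) carried a CD8B UMI in 0.859% and 0.381%.

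The naive markers fitted it only in part. TCF7, the factor that keeps T cells naive or memory-like, was seen in 35.7% of A.G.-ES and 38.1% of untreated members. The share was 42.5% and 44.0% in CD4 T barcodes of the same libraries (CD4 present, CD8A, CD8B and NCR1 absent, GNLY at most 1), and 6.76% and 5% in GNLY-high CD8 T barcodes, which met the members' rule but for 2 or more GNLY UMIs. B barcodes had TCF7 in 10.8% and 16.2%. SATB1, a chromatin organiser of developing and resting T cells, was seen in 79.1% and 72.2% of members but also in 86.5% and 76.7% of GNLY-high barcodes, so it did not set these CD8 sets apart. LEF1, the partner of TCF7, was seen in 46.1% of A.G.-ES and 70.5% of untreated members (24.4% and 36.5% at 1500 UMIs), against 79.4% and 86.5% of CD4 T barcodes and 8.11% and 10.0% of GNLY-high barcodes.

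CCR7, the lymph node homing receptor, was seen in 7.44% of A.G.-ES and 11.9% of untreated members, below its share of 22.5% and 37.7% in B barcodes. IL7R, the IL-7 receptor chain, was seen in 83.3% and 80.1% of members, 95.4% and 92.3% of CD4 T barcodes and 45.5% and 51.7% of GNLY-high barcodes.

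Effector transcripts were common among the members. CCL5, a chemokine stored by memory and effector CD8 cells, was seen in 68.2% of A.G.-ES and 48.9% of untreated members (56.4% and 34.1% at 1500 UMIs), against 8.30% and 3.37% of CD4 T barcodes and 7.97% and 1.11% of B barcodes. NKG7, a granule membrane protein, was seen in 50.8% and 56.2% of members and in 1.88% and 0.635% of B barcodes. KLRK1, the activating receptor NKG2D, was seen in 50.4% and 50.6% of members and in 0.859% and 0.222% of B barcodes. PRF1, the pore-forming perforin, was seen in 32.6% and 30.7% of members, 73.9% and 76.7% of GNLY-high barcodes and 1.25% and 0.635% of B barcodes. Because these genes stood far above the B background, the members are called below by their rule and not as naive cells.

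**Figure D1:**
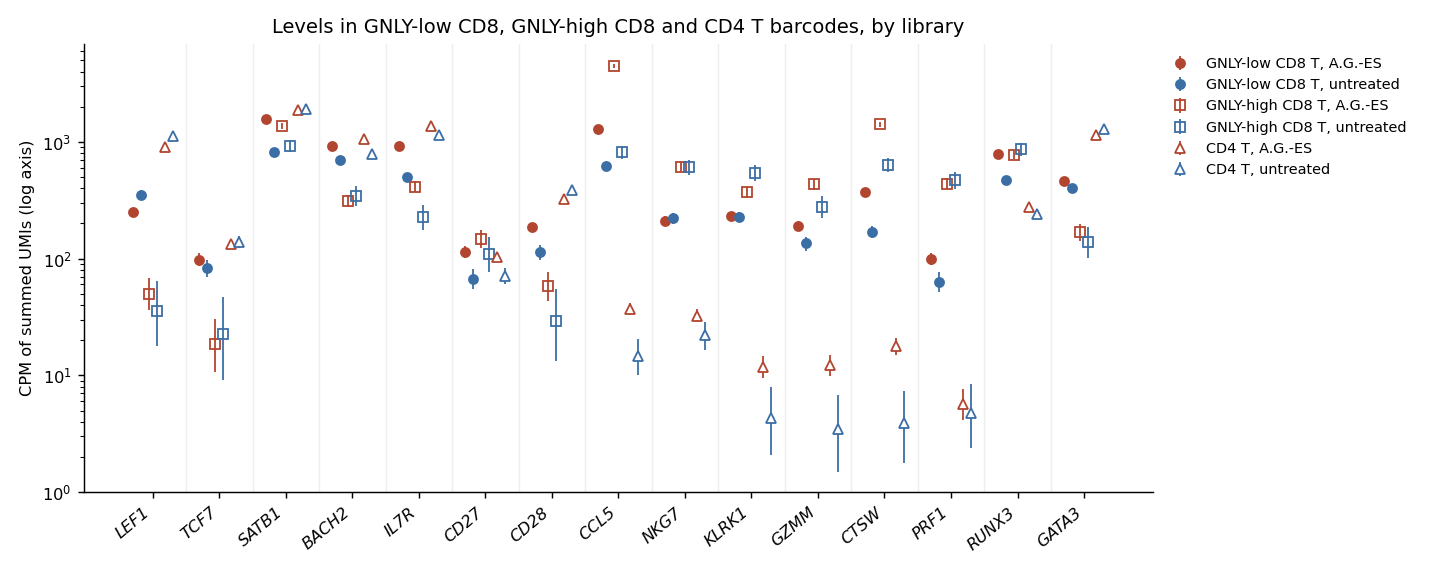
Level in counts per 1000000 UMIs of a set (CPM, log axis) of 15 genes in GNLY-low CD8 T (circles), GNLY-high CD8 T (squares) and CD4 T barcodes (triangles), A.G.-ES in red and untreated in blue; bars are 95% Poisson intervals of the summed count. Members lay between both other sets for LEF1 (252 and 352 CPM in A.G.-ES and untreated members, 912 and 1131 in CD4 T, 50.2 and 35.6 in GNLY-high) and for PRF1 (99.2 and 63.2 CPM in members).

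Members differed in which of these programs they carried. In the A.G.-ES library, 91 members (18.8%, interval 15.4 to 22.6) had a UMI of LEF1 or TCF7 but none of CCL5 or NKG7, 165 (34.1%, 29.9 to 38.5) had CCL5 or NKG7 but no LEF1 or TCF7, 201 (41.5%, 37.1 to 46.1) had both and 27 (5.58%, 3.71 to 8.01) had neither. In the untreated library, 53 (30.1%, 23.4 to 37.5) had only LEF1 or TCF7, 37 (21%, 15.3 to 27.8) only CCL5 or NKG7, 78 (44.3%, 36.8 to 52.0) both and 8 (4.55%, 1.98 to 8.76) neither. At 1500 UMIs per barcode the share with only LEF1 or TCF7 was 16.7% in A.G.-ES and 28.8% in untreated members, and the share with only CCL5 or NKG7 was 45.3% and 31.8%. The members with both had medians of 5769 UMIs in the A.G.-ES and 9217 in the untreated library, and at 1500 UMIs their share was 17.1% and 12.4%.

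At that fixed depth the share with CCL5 was lower among members with LEF1 in both libraries. CCL5 was seen in 45 of 117 A.G.-ES members with LEF1 (38.5%) and in 225 of 362 without it (62.2%). In the untreated library it was seen in 12 of 62 members with LEF1 (19.4%) and in 46 of 108 without it (42.6%). TCF7 was seen in 19.7% of A.G.-ES members with LEF1 and 12.4% of those without, and in 21% and 7.41% in the untreated library. NKG7 was seen in 36.7% of A.G.-ES members with CCL5 and 13.9% of those without, and in 36.2% and 15.2% in the untreated library. Cells of 1 library are not replicates, so these shares describe the libraries and carry no test.

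The classes cut by LEF1, TCF7, CCL5 and NKG7 also differed in genes that did not define them. PRF1 stood at 174 CPM in A.G.-ES members with only CCL5 or NKG7 and at 19.9 CPM in those with only LEF1 or TCF7; the untreated values were 162 and 6.94 CPM. EOMES, a factor of effector and memory CD8 cells, stood at 103 and 11.1 CPM in the same A.G.-ES classes and at 45.6 and 0 CPM in the untreated ones. RUNX3, which silences CD4 in the CD8 lineage, stood at 1070 and 414 CPM in the A.G.-ES and at 874 and 323 CPM in the untreated library. All 3 genes stood higher in the members with CCL5 or NKG7 in both libraries. CD8A did so too, at 158 and 81.9 CPM in the A.G.-ES and at 249 and 34.7 CPM in the untreated library. SOX13 and RHEX, counted below as gamma-delta-like genes, stood higher in the members with only LEF1 or TCF7. In the same order, SOX13 stood at 0 and 26.6 CPM in the A.G.-ES and 4.14 and 125 CPM in the untreated library. RHEX stood at 7.83 and 48.7 CPM and at 33.1 and 305 CPM.

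Some genes of resting cells stood lower in the members with CCL5 or NKG7. BACH2, a repressor that holds back effector differentiation, stood at 590 CPM in A.G.-ES members with only CCL5 or NKG7 and 1167 CPM in those with only LEF1 or TCF7, and at 195 and 1392 CPM in the untreated library. IL7R stood at 769 and 1107 CPM in the A.G.-ES and at 385 and 791 CPM in the untreated library. CD28, the costimulatory receptor lost on late effector cells in human, stood at 155 and 264 CPM in the A.G.-ES and at 104 and 181 CPM in the untreated library. SATB1 separated these classes only in the untreated library, at 431 and 1264 CPM, against 1384 and 1289 CPM in the A.G.-ES library. S1PR1, the receptor by which lymphocytes leave lymph nodes, stood at 120 and 113 CPM in the A.G.-ES and at 82.8 and 184 CPM in the untreated library. CD27 stood higher in the members with only CCL5 or NKG7, at 133 and 109 CPM in the A.G.-ES and 87 and 66 CPM in the untreated library.

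**Figure D2:**
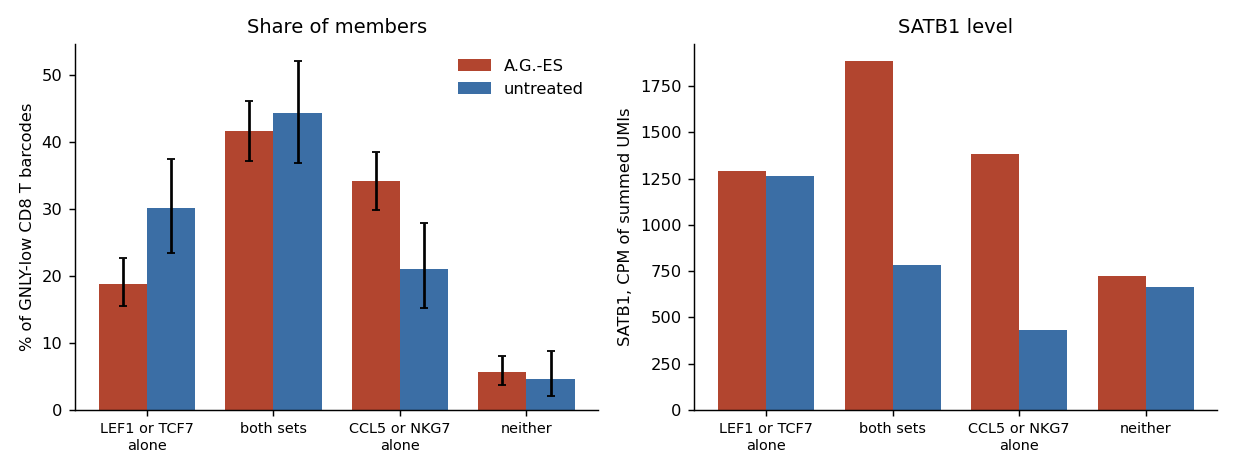
Left, share of GNLY-low CD8 T barcodes (percent, bars are 95% Clopper-Pearson intervals) with UMIs of LEF1 or TCF7 only, of both programs, of CCL5 or NKG7 only or of neither; right, SATB1 level (CPM) in each set, A.G.-ES in red and untreated in blue. Members with only CCL5 or NKG7 made up 34.1% of the A.G.-ES and 21% of the untreated members, and SATB1 in them stood at 1384 and 431 CPM.

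The members varied with their number of CD8B UMIs too. Those with 1 CD8B UMI numbered 280 in the A.G.-ES and 95 in the untreated library, and those with 3 or more numbered 108 and 53, at median depths of 4513 and 4972 UMIs against 5649 and 11032. CD8A was seen in 60.2% of A.G.-ES members with 3 or more CD8B UMIs and in 33.2% of those with 1; the untreated shares were 79.2% and 16.8%. KLRK1 was seen in 72.2% and 40.4% in the A.G.-ES and in 81.1% and 33.7% in the untreated library. LEF1 ran against this order, at 146 CPM with 3 or more and 324 CPM with 1 CD8B UMI in the A.G.-ES library and at 245 and 453 CPM in the untreated library. In the same order, CD8A stood at 171 and 105 CPM in the A.G.-ES and at 201 and 42.7 CPM in the untreated library. KLRK1 stood at 312 and 191 CPM in the A.G.-ES and at 300 and 138 CPM in the untreated library. CD8A and KLRK1 were thus higher with more CD8B by share and by CPM, while the LEF1 level was lower. The members with more CD8B were also deeper.

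The limit of 1 GNLY UMI fell in a sparse stretch between these sets. Of all CD8 T barcodes in the A.G.-ES library, 411 had no GNLY UMI, 73 had 1, 17 had 2 or 3, 27 had 4 to 9, 51 had 10 to 29 and 127 had 30 or more. The untreated counts in the same order were 166, 10, 3, 8, 20 and 29. A GNLY UMI was seen in 15.1% of A.G.-ES and 5.68% of untreated members, where the rule allows 1 UMI and no more, against 17.4% and 4.51% of B barcodes, where it sets no limit.

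Just inside the limit, at 1 GNLY UMI, LEF1 stood at 298 CPM in the A.G.-ES and 293 CPM in the untreated library. Just outside it, at 2 or 3 UMIs, LEF1 stood at 111 and 110 CPM, though over 17 and 3 barcodes. PRF1 stood at 63.2 and 115 CPM just inside and at 152 and 183 CPM just outside. At 30 or more GNLY UMIs, LEF1 stood at 36.6 and 13.5 CPM and PRF1 at 553 and 629 CPM.

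**Figure D3:**
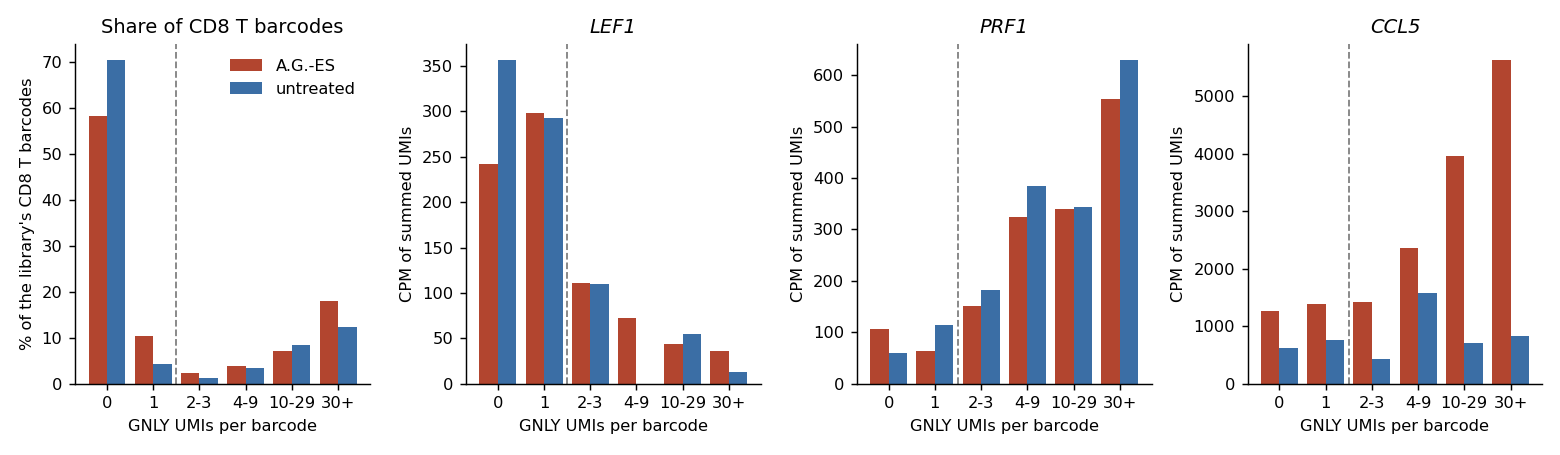
Share of CD8 T barcodes (percent) and levels of LEF1, PRF1 and CCL5 (CPM) by number of GNLY UMIs per barcode, A.G.-ES in red and untreated in blue; the dashed line marks the limit of 1 UMI. LEF1 was lower above the limit (298 CPM at 1 UMI and 36.6 CPM at 30 or more in the A.G.-ES library), while CCL5 in the A.G.-ES library reached 5622 CPM at 30 or more UMIs.

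Against CD4 T barcodes of the same library, the members were higher in most cytotoxic effector genes and lower in most CD4 helper genes. Of 6760 genes with at least 50 UMIs over both sets in each library, 233 (3.45%) were higher by 1.5-fold or more and 296 (4.38%) lower by that margin in the members in both libraries. The genes of the rule are left out of these counts. The median log2 ratio over all genes was -0.10 in the A.G.-ES and 0.0024 in the untreated library. Because CD4 and CD8B chose the sets, the ratios describe what travels with that choice.

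CCL5 stood at 1284 CPM in A.G.-ES members and 36.9 CPM in CD4 T barcodes, a ratio of 34.8 (30.8 to 39.4); the untreated levels were 623 and 14.7 CPM, a ratio of 42.5 (30.2 to 61.8). KLRK1 stood at 233 and 11.9 CPM in the A.G.-ES library, a ratio of 19.7 (15.8 to 24.8), and at 228 and 4.31 CPM in the untreated library, a ratio of 52.8 (28.4 to 111). CTSW, a protease of killer lymphocytes, stood at 373 and 17.8 CPM in the A.G.-ES and at 169 and 3.88 CPM in the untreated library. Of 12 cytotoxic effector genes measured in both sets, 10 were higher in the members in both libraries, with median log2 ratios of 2.45 in the A.G.-ES and 3.40 in the untreated library. The other two were FASLG, the death ligand, at 0.86 and 0.36, and SRGN, the granule proteoglycan, at -0.19 and -0.36.

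Of 8 CD8 lineage and effector transcription factors, 4 were higher in the members in both libraries, with list medians of 1.00 and 0.75. RUNX3 had log2 ratios of 1.51 in the A.G.-ES and 0.97 in the untreated library, TBX21 of 0.91 and 1.38, IKZF3 of 1.09 and 1.31 and BHLHE40 of 1.62 and 1.32. Of 11 CD4 helper genes, 9 were lower in the members in both libraries, with medians of -1.53 and -1.68. CD40LG, the helper ligand for B cells, had log2 ratios of -1.92 and -3.02, and GATA3, the type 2 helper factor, of -1.30 and -1.68. BATF (0.52 and 0.99) and RORA (-0.28 and -0.91) were not lower by that margin in both libraries.

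Of 15 naive and quiescence transcription factors, none was higher and 1 was lower in the members in both libraries, with medians of -0.30 in the A.G.-ES and -0.62 in the untreated library. The lower gene was LEF1, with log2 ratios of -1.85 and -1.68. TCF7 had -0.44 and -0.75, SATB1 -0.26 and -1.24, BACH2 -0.20 and -0.17 and KLF2 0.74 and 0.46. Of 10 homing and survival receptors, ITGA6 was higher (0.59 and 0.90) and CD28 lower (-0.81 and -1.79) in both libraries. CCR7 had -0.04 in the A.G.-ES and 1.10 in the untreated library, on counts that were low in both sets. Of the 43 CCR7 UMIs of untreated members, 31 lay in the 44 barcodes with MKI67 and TOP2A UMIs described below. In the other untreated barcodes CCR7 stood at 15.1 CPM in members and 13 CPM in CD4 T. SATB1 stood there at 1162 and 2061 CPM and LEF1 at 478 and 1199 CPM, so both remained lower in members.

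Beyond these lists, the genes farthest above CD4 T barcodes included PVRIG, an inhibitory receptor of killer lymphocytes, at 125 and 34.2 CPM in the A.G.-ES and 92.9 and 22.0 CPM in the untreated library. HDAC9, a histone deacetylase, stood at 117 and 21.9 CPM in the A.G.-ES and 86.5 and 20.7 CPM in the untreated library. NUCB2, a calcium-binding protein of the secretory path, stood at 390 and 113 CPM and at 254 and 57.3 CPM in the same order. ABTB2 (log2 ratios 2.00 and 2.60) and TIMP3 (1.83 and 2.35) completed this group with CD79A (3.39 and 2.80). HDAC9 and CD79A were also high in B barcodes, HDAC9 at 809 and 1217 CPM and CD79A at 730 and 587 CPM, and the part of B cell RNA in these ratios was not tested.

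The genes farthest below included TSHZ2, a zinc finger factor, at 35.8 CPM in A.G.-ES members and 467 CPM in A.G.-ES CD4 T barcodes, and at 21.3 and 195 CPM in the untreated library. SAMHD1, a nucleotide hydrolase, stood at 246 and 889 CPM in the A.G.-ES and 317 and 1367 CPM in the untreated library. TAFA2, a secreted peptide gene, stood at 164 and 755 CPM and at 194 and 1267 CPM in the same order. GHR, the growth hormone receptor, stood at 102 and 316 CPM in the A.G.-ES library and at 29.7 and 384 CPM in the untreated library. HLF, EEPD1, UST, GNAQ, DST, PPFIBP1 and MAST4 had log2 ratios between -1.55 and -2.76 in the members.

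**Figure D4:**
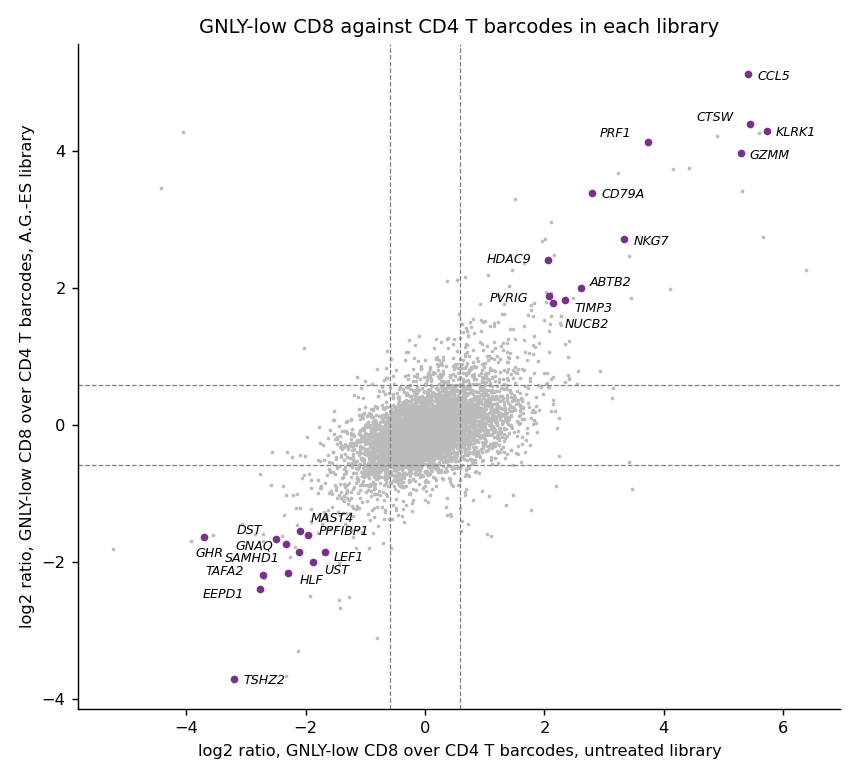
Log2 ratio of each gene in GNLY-low CD8 T over CD4 T barcodes in the untreated (x axis) and the A.G.-ES library (y axis); dashed lines mark 1.5-fold and purple points are the named genes. CCL5 (5.12 in the A.G.-ES and 5.41 in the untreated library), KLRK1 (4.30 and 5.72) and CTSW (4.39 and 5.45) lay far above the dashed lines and TSHZ2 (-3.71 and -3.20) far below.

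Against GNLY-high CD8 T barcodes, the members were lower in 7 of 12 cytotoxic effector genes and higher in 3 of 14 naive and quiescence factors, LEF1, TCF7 and BACH2, in both libraries. Of 4836 genes, 236 (4.88%) were higher by 1.5-fold or more and 154 (3.18%) lower by that margin in both libraries, with all-gene medians of 0.02 in the A.G.-ES and 0.08 in the untreated library. GNLY-high barcodes were fewer (222 and 60) and shallower (medians of 3386.5 and 3554 UMIs).

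PRF1 stood at 99.2 CPM in A.G.-ES members and 439 CPM in GNLY-high barcodes, and at 63.2 and 469 CPM in the untreated library. NKG7 stood at 212 and 612 CPM in the A.G.-ES and at 223 and 608 CPM in the untreated library. IL12RB2, a chain of the IL-12 receptor, stood at 39.6 and 262 CPM and at 29.7 and 246 CPM in the same order. The 7 lower cytotoxic effector genes were CTSW, FASLG, GZMM, HOPX, KLRK1, NKG7 and PRF1, and the medians over all 12 were -1.07 and -1.29. GZMK, a granzyme of memory rather than terminal effector CD8 cells in human, was the only effector gene higher in the members in both libraries, with log2 ratios of 1.44 and 0.63. CCL5 had -1.80 in the A.G.-ES library and -0.39 in the untreated library. NCR3 (-1.85 and -2.13), EFHD2, ITGAL, HOPX, CTSD and LITAF were also among the genes farthest below GNLY-high barcodes.

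Among the naive factors, LEF1 (log2 ratios 2.33 and 3.31), TCF7 (2.39 and 1.87) and BACH2 (1.56 and 1.03) were higher in the members in both libraries, while KLF3 (-1.03 and -1.67) and TXK (-0.93 and -0.64) were lower; the medians over 14 factors were 0.17 and -0.06. CD28 (1.67 and 1.95) and IL7R (1.16 and 1.14) were higher among 7 homing and survival receptors. TBX21, the type 1 effector factor, had -2.02 and -2.84, PRDM1, the terminal differentiation factor BLIMP1, -1.32 and -1.38, and BHLHE40 -2.03 and -2.40. TOX, which maintains CD8 cells under chronic stimulation in mouse, had 1.06 and 1.65. AFF3, a nuclear factor gene, was among the genes farthest above GNLY-high barcodes, at 438 and 60.7 CPM in the A.G.-ES and 528 and 68.0 CPM in the untreated library. B barcodes had AFF3 at 1340 and 1936 CPM, and the part of B cell RNA in its ratios was not tested. S100A4, a calcium-binding protein of migrating cells, stood at 587 and 118 CPM in the A.G.-ES and 656 and 178 CPM in the untreated library.

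The members formed 5.12% of kept barcodes in the A.G.-ES library (4.68 to 5.58) and 2.18% in the untreated library (1.87 to 2.52). Of T barcodes they formed 7.56% (6.92 to 8.23) in the A.G.-ES and 4.89% (4.21 to 5.65) in the untreated library. Of CD8 T barcodes they formed 68.6% (65.0 to 72.0) and 74.6% (68.5 to 80.0), intervals that overlap. CD4 T barcodes formed 17.0% and 5.14% of kept barcodes, and GNLY-high barcodes 2.35% and 0.742%, so all 3 sets took a larger share of the A.G.-ES library. Detection of CD8B rises with depth; at 1500 UMIs per barcode the members' shares of kept barcodes were 2.65% and 1.04%.

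Transcripts of dividing cells were seen in more of the untreated members. At least 2 UMIs of MKI67, a protein of dividing cells, and TOP2A, the topoisomerase of dividing cells, were seen in 7 of 484 A.G.-ES members (1.45%, 0.583 to 2.96) and 44 of 176 untreated members (25%, 18.8 to 32.1). At 1500 UMIs per barcode the counts were 1 of 479 (0.209%) and 14 of 170 (8.24%, 4.58 to 13.4). The same count gave 6 of 222 and 11 of 60 GNLY-high barcodes (2.70% and 18.3%) and 21 of 1603 and 21 of 416 CD4 T barcodes (1.31% and 5.05%). The dividing members were deep, with medians of 15947 UMIs in the A.G.-ES and 16085 in the untreated library. The other members had medians of 4803 and 5237.5 UMIs. In summed levels of untreated members the 44 dividing barcodes thus weighed more than their 25% of barcodes. Dividing members held 75% of the A.G.-ES and 97.4% of the untreated members' MKI67 UMIs.

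All 15 measured proliferation genes were at least 1.5-fold lower in A.G.-ES than in untreated members, where 29.9% of all genes were, with a median log2 ratio of -3.17 against -0.28 over all genes. MKI67 stood at 20 CPM in A.G.-ES and 303 CPM in untreated members, a ratio of 0.0661 (0.0486 to 0.0881). TOP2A stood at 12.7 and 221 CPM, CENPF, a kinetochore protein, at 18.8 and 247 CPM, and PCLAF, a clamp factor of DNA replication, at 4.23 and 163 CPM. With the MKI67 and TOP2A barcodes left out, 2 of 6 measured genes were lower and the median was -0.37; since those barcodes were picked by proliferation genes, that drop is built in. The 12 genes farthest below in A.G.-ES members were all of cell division: PCLAF, BIRC5, H1-5, KIF11, TOP2A, MKI67, NCAPG, NUF2, CENPE, CENPF, SPC24 and CENPP. The list was also lower in CD4 T barcodes (9 of 11 genes, median -0.79) and in GNLY-high barcodes (8 of 8, median -2.37). The 12 genes named above stood lower in A.G.-ES than in untreated B barcodes too. MKI67 stood there at 4.92 and 69.2 CPM and TOP2A at 5.31 and 81.9 CPM, so the difference was not confined to T barcodes.

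Over all genes, 622 of 6889 (9.03%) were higher by 1.5-fold or more and 2060 (29.9%) lower by that margin in A.G.-ES than in untreated members. The median log2 ratio was -0.28, so CPM itself was tilted towards lower values in A.G.-ES members. Scaling by the trimmed mean of M values (TMM) moved the median to 0.02 and the counts to 1195 higher and 1075 lower, and centring on the median gave 1143 and 1119. Ratios below are on the CPM scale and are to be read against -0.28. Without the MKI67 and TOP2A barcodes, 448 genes were higher and 1235 lower of 5994, with a median of -0.23. In CD4 T barcodes 683 of 8721 genes (7.83%) were higher and 1319 (15.1%) lower, and in GNLY-high barcodes 305 of 3359 (9.08%) were higher and 802 (23.9%) lower.

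Immediate early genes, which are switched on within minutes of a stimulus, were mostly higher in A.G.-ES members. Of 22 measured, 19 were at least 1.5-fold higher and none lower, with a median log2 ratio of 1.19, beside 9.03% higher over all genes. FOS, an AP-1 subunit, stood at 335 CPM in A.G.-ES and 89.7 CPM in untreated members, a ratio of 3.73 (3.12 to 4.49). JUN, its partner, stood at 672 and 248 CPM, a ratio of 2.71 (2.43 to 3.04). DUSP2, a phosphatase that turns off MAP kinases, stood at 212 and 46.5 CPM, a ratio of 4.56 (3.56 to 5.92). The AP-1 subunits JUNB and JUND had ratios of 2.28 (1.88 to 2.78) and 2.74 (2.41 to 3.12), and the nuclear receptor NR4A2 of 3.02 (2.19 to 4.26). The NF-kB inhibitors TNFAIP3 (610 and 266 CPM) and NFKBIA (224 and 96.1 CPM) were higher as well, as was the antiproliferative gene BTG1 (1270 and 636 CPM). NFKBIA stood at 96.3 and 97 CPM, a ratio of 0.993 (0.803 to 1.23), without members that carried monocyte UMIs other than CST3. CD69 (1.17, 0.875 to 1.59), IER2 (1.20) and ZFP36L1 (1.29) did not pass 1.5-fold.

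The dividing barcodes moved with this result. Without the MKI67 and TOP2A barcodes, 11 of 22 immediate early genes were at least 1.5-fold higher, none was lower and the median was 0.58. FOS then stood at 346 CPM in A.G.-ES and 127 CPM in untreated members, JUN at 692 and 375 CPM and DUSP2 at 219 and 66.7 CPM. In CD4 T barcodes 7 of 21 were higher (median 0.36) and in GNLY-high barcodes 10 of 17 (median 0.82). The part of the dividing barcodes in the result was not tested beyond these values.

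Effector genes split between the libraries. Of 13 measured cytotoxic genes, 6 were at least 1.5-fold higher and 1 lower in A.G.-ES members, with a median of 0.50. Over all genes 9.03% were higher and 29.9% lower. Without the MKI67 and TOP2A barcodes 6 of 12 cytotoxic genes were higher with a median of 0.53. CCL5 stood at 1284 CPM in A.G.-ES and 623 CPM in untreated members, a ratio of 2.06 (1.92 to 2.22). CTSW stood at 373 and 169 CPM, a ratio of 2.21 (1.92 to 2.54), and FASLG at 147 and 45.8 CPM, a ratio of 3.22 (2.49 to 4.20). PLEK, a substrate of protein kinase C, had 2.83 (1.97 to 4.18), PRF1 1.57 (1.24 to 2.00), and IFNG, interferon gamma, 2.09 (1.08 to 4.35) on 42 and 12 UMIs. PLEK turned to 0.367 (0.203 to 0.649) without members that carried monocyte UMIs other than CST3.

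Other effector genes were level or lower on the CPM scale. NKG7 stood at 212 and 223 CPM, a ratio of 0.950 (0.829 to 1.09), and KLRK1 at 233 and 228 CPM, a ratio of 1.02 (0.897 to 1.17). GZMK stood at 28.5 CPM in A.G.-ES and 85.2 CPM in untreated members, a ratio of 0.334 (0.248 to 0.447). The CCL5 background differed as well: it was seen in 7.97% of A.G.-ES and 1.11% of untreated B barcodes, and the part of free RNA in the CCL5 result was not tested. In CD4 T barcodes 5 of 12 cytotoxic genes were higher (median 0.52), and in GNLY-high barcodes 7 of 12 (median 0.60).

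Of 9 CD8 lineage and effector factors, 4 were higher and 1 lower in A.G.-ES members, with a median of 0.12, beside 9.03% higher and 29.9% lower over all genes. RUNX3 stood at 782 CPM in A.G.-ES and 472 CPM in untreated members, a ratio of 1.66 (1.52 to 1.81), EOMES at 59.6 and 27.1 CPM and ID2, which sustains effector CD8 cells in mouse, at 144 and 62.6 CPM. BHLHE40 had 1.84 (1.42 to 2.43). IKZF3, the Ikaros family factor Aiolos, was lower, at 113 and 194 CPM, a ratio of 0.586 (0.497 to 0.691). Its ratio turned to 1.30 (0.754 to 2.36) when the rule was applied again to counts thinned to 1500 UMIs per barcode. TBX21 (1.08), ZEB2 (1.04), PRDM1 (0.894) and TOX (0.783) did not pass 1.5-fold. Without the MKI67 and TOP2A barcodes 2 factors were higher and 2 lower, and the log2 ratio of RUNX3 was 0.47 against 0.73.

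The naive factors had no common direction gene by gene. Of 15 measured, 3 were higher and 1 lower in A.G.-ES members, beside 9.03% higher and 29.9% lower over all genes. Their median was 0.15 against -0.28 over all genes, so as a list they stood above it. Without the MKI67 and TOP2A barcodes 1 was higher and 3 lower, and the median of -0.26 lay near the all-gene median of -0.23. SATB1 stood at 1565 CPM in A.G.-ES and 814 CPM in untreated members, a log2 ratio of 0.94, and at 1601 and 1162 CPM, 0.46, without those barcodes. LEF1 stood at 252 and 352 CPM, a ratio of 0.716 (0.638 to 0.804), and at 262 and 478 CPM without those barcodes. TCF7 stood at 98.1 and 82.6 CPM, and at 101 and 121 CPM without those barcodes, so its direction turned. KLF7 had a ratio of 3.09 (2.12 to 4.63), FOXP1, a quiescence factor, 1.56 (1.40 to 1.73), and TXK, a T cell kinase, 0.558 (0.456 to 0.683). BACH2 (1.31, and 0.975 without those barcodes), ETS1 (0.859) and FOXO1 (0.822) did not pass 1.5-fold.

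Among the receptors, IL7R stood at 921 CPM in A.G.-ES and 501 CPM in untreated members, a ratio of 1.84 (1.70 to 2.00). The costimulatory receptors CD27 (113 and 67.1 CPM) and CD28 (185 and 113 CPM) had ratios of 1.69 (1.35 to 2.13) and 1.64 (1.38 to 1.96). CCR9, the receptor that guides T cells to the gut, was lower, at 9.61 and 47.8 CPM, a ratio of 0.201 (0.123 to 0.321). Without the MKI67 and TOP2A barcodes CCR9 stood at 9.99 and 17.6 CPM, a ratio of 0.567 (0.284 to 1.18). CCR7 had 0.679 (0.442 to 1.05), and without those barcodes it turned to 1.30 (0.680 to 2.68), both intervals that hold 1. For ratios at 1500 UMIs per barcode the rule was applied again to the thinned counts, which left 233 A.G.-ES and 78 untreated members. In that set the ratio was 1.18 (0.920 to 1.52) for IL7R and turned to 0.803 (0.496 to 1.34) for CD28. Of 10 receptors measured, 4 were higher and 1 lower (median -0.02), beside 9.03% higher and 29.9% lower over all genes. Without the MKI67 and TOP2A barcodes 1 of 9 was higher.

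Of 14 T cell receptor signalling genes, 1 was higher and 1, PTPN22 (ratio 0.664), lower in A.G.-ES members, with a median of 0.15; without the MKI67 and TOP2A barcodes PTPN22 had 1.01. Memory and activation genes gave 2 higher and 6 lower of 19, with a median of -0.14, shares of the list near those of all genes, 9.03% higher and 29.9% lower. ITGB1, an adhesion chain raised on memory T cells, stood at 665 CPM in A.G.-ES and 1341 CPM in untreated members, a ratio of 0.496 (0.465 to 0.529), and ANXA2, an annexin, at 138 and 334 CPM. LGALS3, galectin 3, was higher, with a ratio of 4.71 (2.98 to 7.81). Of 20 interferon-stimulated genes, 2 were higher (RSAD2 and IRF7, ratios 2.63 and 2.14) and 4 lower, among them MX1 (0.563), USP18 (0.397) and HERC6 (0.417). The interferon median of -0.35 lay near the all-gene median. Of 11 genes of the TGF-beta pathway, SKIL was higher (1.67) and SMAD3 (0.451), TGFBR3 (0.405) and ACVR1 (0.596) were lower, with a median of 0.01 and again shares near those of all genes. Of 12 genes of common gamma chain signalling, 3 were higher and none lower, with a median of 0.38: IL21R (2.22), SOCS1 (2.03) and STAT5A (1.53). Without the MKI67 and TOP2A barcodes 2 were higher and 1 lower (median 0.08), and at 1500 UMIs 0 of 6 were higher and 1 lower (median 0.13). In members with CCL5 or NKG7 6 of 11 were higher (median 0.64, beside an all-gene median of -0.29). In members with no CCL5 and no NKG7 1 of 7 was higher. Their median of -0.25 lay near the all-gene median of -0.22 in that set.

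A further set of members, larger in the untreated library, carried SOX13 or RHEX. SOX13 is a factor of gamma-delta T cells in mouse, and RHEX was listed with it as a gene of the gamma-delta-like barcodes of this series. A UMI of either was seen in 30 of 484 A.G.-ES members (6.20%, 4.22 to 8.73) and 54 of 176 untreated members (30.7%, 24.0 to 38.1), and at 1500 UMIs in 4.38% and 21.8%. GNLY-high barcodes had 4 of 222 and 2 of 60 (1.80% and 3.33%) and CD4 T barcodes 4.37% and 4.33%. RHEX was seen in 1.85% of A.G.-ES members with 3 or more CD8B UMIs and 7.14% of those with 1, and in 11.3% and 42.1% in the untreated library.

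The members with SOX13 or RHEX were low in CD8A and effector genes. CD8A stood at 34.2 CPM in A.G.-ES members with either gene and 139 CPM in those with neither, and at 49.4 and 156 CPM in the untreated library. CCL5 stood at 376 and 1362 CPM in the A.G.-ES and at 167 and 774 CPM in the untreated library. GATA3 was the other way, at 860 and 428 CPM in the A.G.-ES and 627 and 329 CPM in the untreated library. LEF1 stood at 298 and 248 CPM in the A.G.-ES and at 416 and 331 CPM in the untreated library. Without these barcodes the members formed 4.80% of kept barcodes in the A.G.-ES and 1.51% in the untreated library, 659 genes were higher and 2073 lower of 6480, and 18 of 21 immediate early genes were higher (median 1.39).

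The genes farthest above in A.G.-ES members fell into few-barcode and widespread ones. COX3, a mitochondrial subunit of cytochrome oxidase, stood at 2334 CPM in A.G.-ES and 210 CPM in untreated members, a ratio of 11.1 (9.95 to 12.5), and was seen in 93.4% and 66.5% of members. ATF3, a stress factor of the AP-1 network, stood at 88.1 and 10.3 CPM, was seen in 110 A.G.-ES and 10 untreated members and had a ratio of 8.53 (5.14 to 15.2). NFIA, a nuclear factor gene, stood at 105 and 14.2 CPM and was seen in 146 and 13 members. RGS2, a regulator of G protein signalling, stood at 178 and 33.6 CPM and was seen in 182 and 30 members. LUZP2 stood at 51.2 and 7.10 CPM and was seen in 105 and 10 members. The log2 ratios of ATF3, NFIA and RGS2 were 3.09, 2.89 and 2.41 in the members and 1.15, 1.57 and 1.72 in CD4 T barcodes.

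CXCL8, a chemokine of myeloid cells, stood at 203 and 7.74 CPM but was seen in 12 A.G.-ES and 4 untreated members, and 1 A.G.-ES barcode held 272 of its 527 UMIs. JCHAIN, the joining chain of secreted antibodies, was seen in 19 and 14 members and 1 A.G.-ES barcode held 188 of 248 UMIs; without the 3 highest barcodes of each library it stood at 6.63 and 7.27 CPM. C1R was seen in 9 and 2 members, VCAN in 13 and 4, TYROBP in 17 and 4, IL1A in 27 and 4 and RYR2 in 38 and 6. VCAN is a myeloid gene. TYROBP was counted here among the natural killer genes, whose median log2 ratio was 0.80. Without members that carried monocyte UMIs other than CST3, that median was 0.44.

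Markers of other cell types varied among the members. Of 8 monocyte genes, 7 were seen in A.G.-ES and 3 in untreated members, summing to 279 and 69.7 CPM, with CD14 at 0 in both and LYZ, S100A8 and CSF1R among the genes at 0 in untreated members; CD4 T barcodes had 146 and 72.4 CPM and B barcodes 73.8 and 53.2 CPM. Without members that carried monocyte UMIs other than CST3, 565 genes were higher and 2021 lower, and 18 of 22 immediate early genes were higher (median 1.06). Of 11 B cell genes 10 were seen in each library, summing to 210 and 317 CPM against 5498 and 7463 CPM in B barcodes, with CR2 at 0; 12.4% of A.G.-ES and 44.9% of untreated members had 3 or more B cell UMIs, against 2.74% and 7.45% of CD4 T barcodes. The 6 gamma-delta-like genes summed to 573 and 723 CPM in members and 1203 and 1399 CPM in CD4 T barcodes. GATA3 alone made up 462 and 403 CPM of the members' sums. Gene by gene, 4 of the 6 were at least 1.5-fold higher and 2, GATA3 among them, lower than in CD4 T barcodes in both libraries. Over all genes 3.45% were higher and 4.38% lower. The list's median log2 ratios were 1.14 in the A.G.-ES and 1.87 in the untreated library. Against GNLY-high barcodes 4 of 4 were higher, beside 4.88% over all genes. Of members, 31% and 56.2% had 3 or more gamma-delta-like UMIs. Of 8 natural killer genes 6 and 5 were seen, summing to 278 and 188 CPM, with NCR1 at 0 by the rule and KLRF1 at 0 in both. Of 7 platelet genes 5 were seen, summing to 27.7 and 29 CPM, with PPBP and GP9 at 0. The part of these cells in the library differences was not tested beyond these values.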

How the data were processed

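Single-cell RNA was measured in 2 libraries of sheep blood mononuclear cells, made with a SeekOne DD 3′ kit and read on a GeneMind sequencer, per the labels' protocols. The authors deposited raw UMI counts per gene and barcode. The aligner, the caller and the build: not given in the sources used here. The files held 9638 A.G.-ES and 8246 untreated barcodes, with 44485442 and 55861418 UMIs; 186 and 158 barcodes fell outside the limits of genes and mitochondrial UMIs. All 26761 gene names matched a RefSeq table, and 26 of 379 list genes were not among them.

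Counts were summed per library and set of barcodes with Python 3.11.15, scanpy 1.11.5, numpy 2.4.6, scipy 1.17.1 and pandas 2.3.3, and given as counts per 1000000 UMIs of the set (CPM). Ratios of CPM had exact conditional binomial 95% intervals, levels Poisson and shares Clopper-Pearson intervals, all for counting error only. A zero was bounded at 3 counts. Genes needed 50 UMIs in a comparison; a call was a ratio past 1.5. TMM factors came from edgeR 4.0.16 in R 4.3.3. Thinning drew 1500 UMIs per barcode and left out 5 and 6 members, 25 and 7 CD4 T, 8 and 4 GNLY-high and 14 and 51 B barcodes. For ratios, list medians, counts of genes and shares of kept or T barcodes, the rule was applied again to the thinned counts. It then held for 233 A.G.-ES and 78 untreated barcodes, so membership changed along with depth. B barcodes had at least 3 UMIs of MS4A1, CD79B and PAX5 and no CD3. Doublet scores came from Scrublet in scanpy, at 0.8% per 1000 barcodes. The ratios were checked on simulated counts.

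Named genes were, in each comparison and among those with 100 UMIs or more, the 12 highest and the 12 lowest by the interval bound nearest 1, with the markers, the genes of the rule and genes of the lists. The members and lists were chosen with earlier results of these data known. Alternatives covered the GNLY and CD8B limits, doublets, depth, gene minimum, scaling and, after seeing the data, the barcode sets left out. Some genes of the lists are counted but not reported here by name.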

Additional observations from a re-analysis of the deposited data

How the results depend on the processing

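The alternatives that left out or picked members by SOX13 or RHEX, by MKI67 and TOP2A, by monocyte UMIs or by CCL5 and NKG7 were chosen after seeing the data. Of 132 recomputed shares and counts of genes, 91 stayed within 1.5 times the count or within the share's interval and 41 did not. The members' share of kept barcodes was 4.35% in the A.G.-ES library with no GNLY UMI allowed (6.42% of T barcodes), and with at least 2 CD8B UMIs 2.16% in the A.G.-ES and 1.00% in the untreated library (3.19% and 2.25% of T barcodes). At 1500 UMIs the shares were 2.65% and 1.04% (4.27% and 2.46% of T barcodes). The untreated share was 1.51% without SOX13 or RHEX barcodes (3.39% of T barcodes) and 1.63% without MKI67 and TOP2A barcodes (3.67%). For A.G.-ES against untreated members, genes higher and lower numbered 167 and 242 at 1500 UMIs, 199 and 608 at a minimum of 250 UMIs, 1195 and 1075 with TMM, 1143 and 1119 after centring, and 234 and 658 in members with no CCL5 and no NKG7; 1055 were higher at a minimum of 20 UMIs and 1235 lower without MKI67 and TOP2A barcodes. Against CD4 T barcodes they numbered 27 and 83 at 1500 UMIs and 44 and 140 at a minimum of 250; 472 were lower with at least 2 CD8B UMIs, 396 higher at a minimum of 20 and 147 higher without MKI67 and TOP2A barcodes. Against GNLY-high barcodes they numbered 112 and 82 with no GNLY UMI allowed, 27 and 27 at 1500 UMIs, 464 and 275 at a minimum of 20 and 51 and 50 at a minimum of 250. Fewer genes or barcodes enter at 1500 UMIs, at a minimum of 250 and in members with no CCL5 and no NKG7, and more genes at a minimum of 20. TMM and centring took the all-gene median of -0.28 close to level. With no GNLY UMI allowed, the 73 A.G.-ES and 10 untreated barcodes with 1 UMI were counted as GNLY-high. The cause of the other shifts was not tested. Of 400 recomputed list medians of A.G.-ES over untreated members, 57 changed sign, 53 of them from a median under 1.5-fold. The other 4 started past 1.5-fold: natural killer genes to -0.89 at 1500 UMIs and -0.14 at a minimum of 250, gamma-delta-like genes to 0.20 at that minimum, and TCF7 with SATB1 to -0.29 in members with no CCL5 and no NKG7. Of 1142 recomputed values of the genes farthest above or below in each comparison 7 changed sign: IL1A to -0.58, JCHAIN to -2.58 and C1R to -0.26 at 1500 UMIs, TOP2A to 0.082 without MKI67 and TOP2A barcodes, CXCL8 to -0.90 without monocyte barcodes and to -0.44 in members with CCL5 or NKG7, and VCAN to -1.03 in members with CCL5 or NKG7. No paired analysis was possible because each condition had 1 library, and no replicate could be left out. Depth limits the rarest genes: CCR7 rests on 49 UMIs in A.G.-ES and 43 in untreated members.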

Other observations

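CD79A, the signalling chain of the B cell receptor, was common in members although they had at most 1 UMI of MS4A1, CD79B and PAX5 together. It was seen in 39.3% of A.G.-ES and 56.8% of untreated members, at 128 and 174 CPM, and in 40.3% and 56.5% of members with no UMI of those 3 genes. GNLY-high barcodes had it in 50% and 33.3%, and CD4 T barcodes in 4.05% and 9.86%. All other T barcodes had it in 30.3% of the A.G.-ES and 57.3% of the untreated library, at 130 and 260 CPM. CD79A was thus not particular to the CD8 sets. B barcodes had CD79A in 94.8% and 95%, at 730 and 587 CPM.

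Levels of several T cell genes differed between members with and without CD79A. CCL5 stood at 1564 CPM in A.G.-ES members with CD79A and 1050 CPM in those without, and at 716 and 395 CPM in the untreated library. GATA3 stood at 237 and 650 CPM in the A.G.-ES and at 242 and 801 CPM in the untreated library. SATB1 stood at 1293 and 1793 CPM in the A.G.-ES and at 513 and 1559 CPM in the untreated library. MKI67 moved with this split in the untreated library, at 359 CPM with and 164 CPM without CD79A, and at 19.4 and 20.5 CPM in the A.G.-ES library. Untreated members with MKI67 and TOP2A UMIs had GATA3 at 121 CPM and SATB1 at 447 CPM, against 670 and 1162 CPM in the other untreated members; the part of those barcodes in the CD79A split was not tested.

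The difference of COX3 between the libraries was of the same size in other T barcodes, with log2 ratios of 3.48 in members, 3.52 in CD4 T barcodes and 3.69 in GNLY-high barcodes. It was seen in B barcodes as well, with COX3 at 1844 CPM in the A.G.-ES and 177 CPM in the untreated library. LUZP2 had 2.85 in members and 3.91 in CD4 T barcodes.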
